A study of Mus musculus with 12 samples.

Results

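The RNA levels of 10 genes that mark mast cells, basophils and eosinophils were followed in mouse lung tumours and in the adjacent normal lung: Cpa3, Cma1, Tpsb2, Mcpt8, Fcer1a, Ms4a2, Hdc, Kit, Siglecf and Ccr3. They were chosen by symbol, and all 10 matched rows of a count table of 78298 gene identifiers. There were 4 groups of 3 libraries each: normal lung after VEH, normal lung after house dust mite (HDM), LLC tumours after VEH and LLC tumours after HDM. All are from whole pieces of Mus musculus lung, cut out by hand under a microscope. VEH and LLC are not expanded in the labels, although in mouse work LLC usually stands for the transplanted Lewis lung carcinoma line. Strain, age, dose and time of exposure are not given in the sources used here. Nothing in the labels says that replicates came from separate animals, so p-values measure the spread between these libraries.

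Mast cells, basophils and eosinophils are rare white blood cells of the allergic response. Mast cells live in tissue, depend on the receptor Kit, and store histamine and proteases in granules that are released when antigen binds IgE held on their surface receptor. Basophils carry the same IgE receptor but circulate in blood, whereas eosinophils enter allergic airways in answer to eotaxins, which they sense through Ccr3. Several of the 10 genes are also used by other lung cells: Kit by part of the capillary endothelium, Siglecf by alveolar macrophages, and Hdc by neutrophils.

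Library totals lay between 20608682 and 32765364 counts, and 22190 genes passed a filter on low counts. Levels are given as CPM, the counts of a gene for a library of fixed size, with library sizes normalized by TMM. Some libraries stand apart. Tumour HDM replicate 3 held 103 counts of Sftpc, the surfactant gene of alveolar type II cells, against 21282 to 125852 in the other tumours, and the 5 airway markers summed to 3.58 CPM there. Tumour VEH replicate 2 had the most airway RNA of the tumours, at 19709 CPM. Normal VEH replicate 2 had the most cell cycle RNA of the normal libraries, at 147 CPM against 27.1 to 40.3 in the others. Library names carry a prefix that joins 1 normal to 1 tumour library, and for 2 prefixes the joined libraries differ in treatment label. The pairs in conflict are replicate 2 of normal VEH with replicate 2 of tumour HDM, and replicate 3 of normal HDM with replicate 3 of tumour VEH. In bulk RNA, fewer cells of a type and less RNA per cell cannot be told apart.

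Of the 10 genes, 6 passed the filter: Cpa3, Cma1, Mcpt8, Hdc, Kit and Siglecf. Hdc and Kit were abundant, with 22145 and 17767 counts over the 12 libraries. Siglecf had 1102 counts, Cpa3 325, Mcpt8 135, Cma1 116, Tpsb2 108, Ms4a2 56 and Fcer1a 54. Only Ccr3 was near zero, defined as under 10 counts in every library: it had 14 counts in all and 0 in 7 libraries. A count of 0 allows up to 3 counts, which is 0.0910 to 0.138 CPM depending on the library, for counting error alone. Of the 55 counts from 1 to 20 of these genes, 52 were even, against 70.2% of such counts over all genes, so a low count may stand for fewer independent events than its value.

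The sequences around the starts of the receptor chain genes, Cpa3 and the 3 genes called lower are given. GATA factors are known to act on mast cell genes, and their part in the levels reported here was not tested. Each run is the RefSeq stretch from 250 bases before to 50 bases after the start, 5′ to 3′, on the GRCm38.p6 build, which differs from the build of the gene positions given with each gene. Capitals mark AGATAA and its reverse complement TTATCT, searched on both strands. The table matched 9 of the 10 genes, and Tpsb2 was not matched.
Cpa3, chr3:20242132-20242431, minus strand: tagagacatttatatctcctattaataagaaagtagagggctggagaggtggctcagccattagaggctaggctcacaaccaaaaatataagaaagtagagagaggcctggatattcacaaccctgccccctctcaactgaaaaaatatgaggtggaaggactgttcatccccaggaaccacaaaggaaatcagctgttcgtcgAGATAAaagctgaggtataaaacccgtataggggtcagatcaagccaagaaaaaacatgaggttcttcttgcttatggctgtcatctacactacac
Ms4a2, chr19:11623670-11623969, minus strand: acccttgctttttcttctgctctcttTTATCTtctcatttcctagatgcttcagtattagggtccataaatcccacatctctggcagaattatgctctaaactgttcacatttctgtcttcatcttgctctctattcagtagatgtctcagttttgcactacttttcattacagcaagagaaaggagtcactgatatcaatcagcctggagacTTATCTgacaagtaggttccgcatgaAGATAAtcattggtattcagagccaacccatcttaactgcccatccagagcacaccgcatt
Fcer1a, chr1:173227180-173227479, minus strand: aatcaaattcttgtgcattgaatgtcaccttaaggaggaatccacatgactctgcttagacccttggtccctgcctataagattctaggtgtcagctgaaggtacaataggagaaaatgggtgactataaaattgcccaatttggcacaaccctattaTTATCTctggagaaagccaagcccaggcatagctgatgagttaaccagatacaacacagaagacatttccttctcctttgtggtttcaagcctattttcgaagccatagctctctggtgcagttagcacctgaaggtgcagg
Hdc, chr2:126618629-126618928, minus strand: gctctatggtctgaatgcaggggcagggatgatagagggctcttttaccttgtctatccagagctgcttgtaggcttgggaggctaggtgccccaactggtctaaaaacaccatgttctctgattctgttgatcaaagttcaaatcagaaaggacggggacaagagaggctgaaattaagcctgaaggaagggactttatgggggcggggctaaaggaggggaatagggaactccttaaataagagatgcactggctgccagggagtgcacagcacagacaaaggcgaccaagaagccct
Kit, chr5:75574737-75575036, plus strand: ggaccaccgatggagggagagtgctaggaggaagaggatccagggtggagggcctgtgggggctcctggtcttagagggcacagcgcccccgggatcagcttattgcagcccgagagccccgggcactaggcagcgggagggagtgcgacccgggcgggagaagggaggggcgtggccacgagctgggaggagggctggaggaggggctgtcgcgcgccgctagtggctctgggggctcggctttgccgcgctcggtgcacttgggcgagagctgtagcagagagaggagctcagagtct
Siglecf, chr7:43351091-43351390, plus strand: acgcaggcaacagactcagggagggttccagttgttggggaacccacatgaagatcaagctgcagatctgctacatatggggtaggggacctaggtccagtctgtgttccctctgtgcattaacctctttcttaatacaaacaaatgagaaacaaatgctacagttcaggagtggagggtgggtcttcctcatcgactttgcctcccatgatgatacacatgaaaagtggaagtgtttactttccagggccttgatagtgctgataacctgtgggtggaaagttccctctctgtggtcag

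The motif was found in 4 of the 9 matched genes, and in 3672 of all 32851 promoters of this length (11.2%). In Cpa3 it begins 46 bases before the start and in Fcer1a 92 bases before it. Ms4a2 holds it 3 times, at 224, 37 and 11 bases before the start, and Ccr3 holds it 30 bases before the start. These letters are absent from the windows of Hdc, Kit, Siglecf, Cma1 and Mcpt8. Of the 4 genes with the motif, only Cpa3 passed the filter on low counts. A match of letters is a description and not a binding site.

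The histamine gene Hdc, the growth factor receptor Kit and the lectin Siglecf were lower in tumours than in normal lung under both treatments, and none of the tested genes was called higher. Under VEH 0 of the 6 tested genes were higher and 3 were lower in tumours (edgeR quasi-likelihood F-test, called where the Benjamini-Hochberg adjusted p over all tested genes was under 0.05). Over all genes 18.2% were higher and 20.6% lower, or 38.9% in all. Under HDM the counts were again 0 higher and 3 lower of 6, beside 23.0% higher and 28.9% lower of all genes, or 51.9%. The median log2 change of the 6 was -1.94 under VEH and -2.28 under HDM, against -0.11 and -0.08 for all genes. Tumour and normal libraries did not overlap for 3 of the 6 under VEH and for 4 under HDM. Of all genes, 52.4% and 63.1% did not overlap. Under HDM the separated genes included Mcpt8, which was separated by library scaling alone, as given below. The plot of the 10 genes by library shows these levels.

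**Figure D1:**
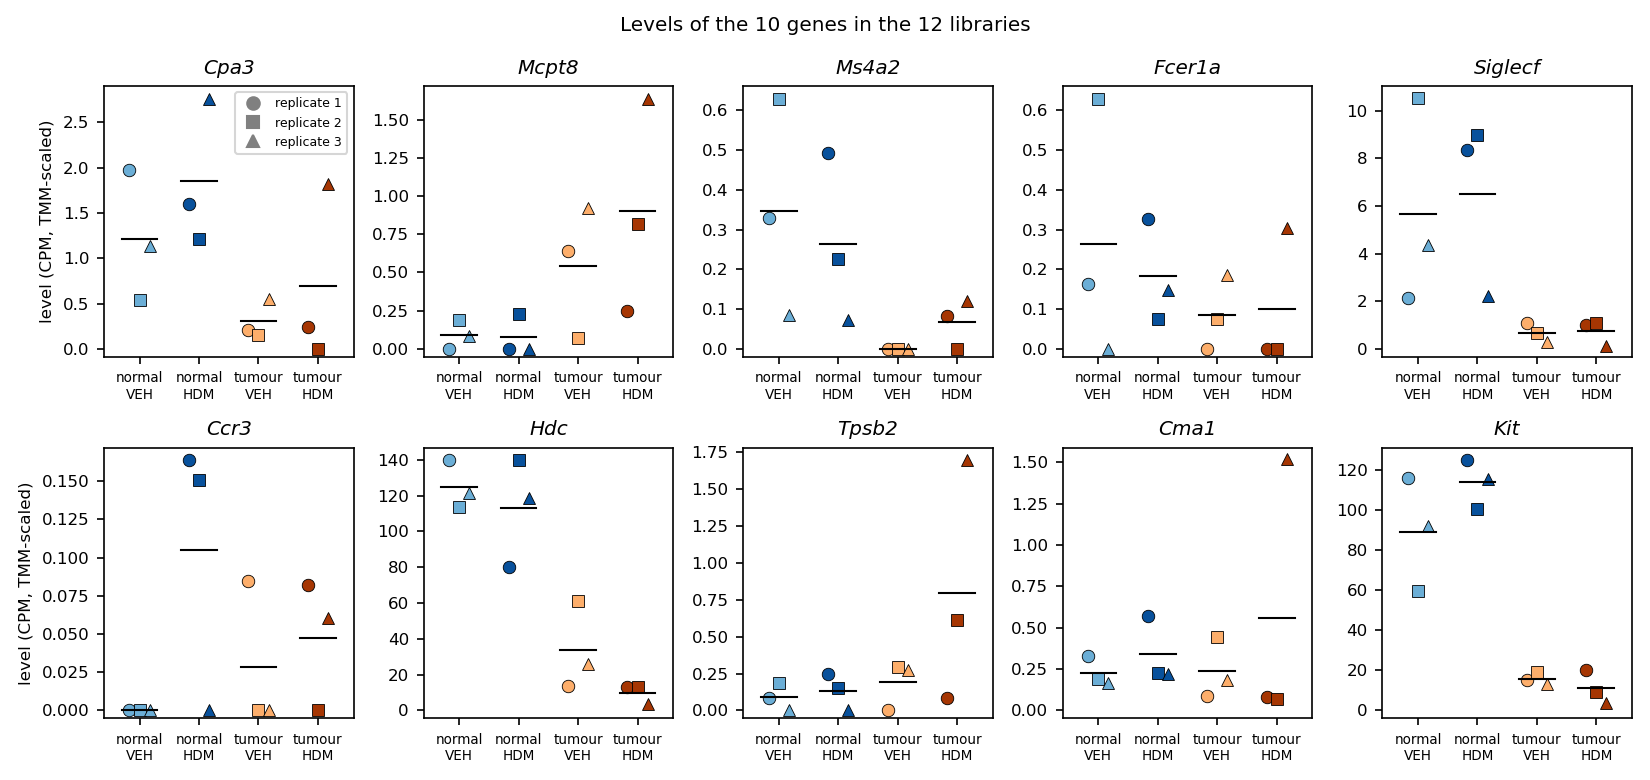
Level of each of the 10 genes (CPM after TMM scaling, 1 panel per gene with its own axis) in the 4 groups. Points are single libraries, shaped by replicate number, and the line is the group mean (n = 3). Hdc, Kit and Siglecf are lower in every tumour library than in every normal library, while tumour HDM replicate 3 holds the highest Tpsb2, Cma1 and Mcpt8 of all 12 libraries.

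Kit, the receptor for stem cell factor, is encoded on chromosome 5 (ENSMUSG00000005672, chr5:75735576-75817404, plus strand, GRCm39). It overlaps Gm72966 on the opposite strand, which had 6 counts in all. In replicates 1, 2 and 3 of normal VEH it stood at 116, 59.6 and 91.7 CPM, and it was at 125, 100.4 and 115 CPM in normal HDM. In tumours it was 15.0, 19.3 and 13.1 CPM under VEH and 20.1, 9.15 and 3.64 CPM under HDM. Every tumour library lay below every normal library, and the lowest was tumour HDM replicate 3. The log2 change from normal to tumour was -2.49 ± 0.50 (SE, n = 3 per group) under VEH and -3.38 ± 0.52 under HDM. Their adjusted p-values were 0.0040 and 0.00061 (edgeR). Without tumour HDM replicate 1 the HDM change was -4.03. Only the removal of all 4 libraries with conflicting prefixes ended a call, that under VEH (-2.49, adjusted p = 0.0596). Beside Kit, the 6 endothelial markers fell together: all 6 were called lower under both treatments. Their sum was 1399 to 2898 CPM in normal VEH, 2567 to 2669 in normal HDM, 302 to 503 in tumour VEH and 108 to 291 in tumour HDM, and no marker was at 0. The part of endothelial RNA in the Kit result was not tested.

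Hdc makes histamine from histidine and lies on chromosome 2 (ENSMUSG00000027360, chr2:126435558-126461318, minus strand, GRCm39). Replicates 1, 2 and 3 of normal VEH stood at 139.8, 114 and 121 CPM, and normal HDM had 80.0, 140.1 and 119 CPM. Tumour VEH had 13.8, 61.2 and 26.2 CPM, and tumour HDM had 13.2, 12.8 and 3.49 CPM. Here too no tumour library reached the normal range, with tumour VEH replicate 2 nearest to it and tumour HDM replicate 3 farthest. The log2 change was -1.89 ± 0.56 (SE, n = 3 per group) under VEH and -3.52 ± 0.60 under HDM, with adjusted p-values of 0.024 and 0.0011 (edgeR). The VEH call was lost when normal VEH replicate 1 (adjusted p = 0.0613), normal VEH replicate 3 (0.0527), tumour VEH replicate 1 (0.0867) or tumour VEH replicate 3 (0.0998) was left out. It was lost as well with no filter on low counts (0.0965), with a block for the name prefix (-2.01, adjusted p = 0.0596) and without the 4 libraries with conflicting prefixes (0.192). Without tumour VEH replicate 2 it was larger, at -2.64.

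Hdc moved with airway RNA from library to library. The 5 airway markers summed to 26258 to 110090 CPM in normal VEH, 24059 to 61170 in normal HDM, 449 to 19709 in tumour VEH and 3.58 to 1131 in tumour HDM. The highest and the lowest tumour, VEH replicate 2 and HDM replicate 3, were the same for Hdc and for this sum. This order was not particular to airway RNA. The same 2 tumours were highest and lowest for the alveolar epithelial sum (8429 and 38.0 CPM), the endothelial sum (503 and 108) and the alveolar macrophage sum (232 and 70.3). Of these markers 0 of 5 were called lower under VEH and 3 of 5 under HDM, and Muc5b was at 0 in tumour HDM replicate 3. The 8 neutrophil markers summed to 18.9 to 826 CPM in normal VEH, 26.0 to 580 in normal HDM, 13.5 to 21.5 in tumour VEH and 16.0 to 74.0 in tumour HDM. Of these, 2 of 8 were called lower under VEH and 0 of 8 under HDM. Ly6g was at 0 in normal VEH replicate 1, and Camp in 5 libraries. The part of either cell type in the Hdc result was not tested.

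Siglecf is a sialic acid binding lectin of eosinophils and, in the mouse, of alveolar macrophages (ENSMUSG00000039013, chr7:43000765-43008955, plus strand, GRCm39). Its level was 2.14, 10.5 and 4.38 CPM in normal VEH and 8.36, 8.99 and 2.21 CPM in normal HDM. In tumours it was 1.10, 0.669 and 0.277 CPM under VEH and 0.986, 1.09 and 0.121 CPM under HDM. The normal libraries fell into a high and a low set that the treatment labels do not follow, yet all lay above all tumours. The log2 change was -3.04 ± 0.90 (SE, n = 3 per group) under VEH and -3.15 ± 0.90 under HDM, with adjusted p-values of 0.022 and 0.013 (edgeR). The VEH call was lost without normal VEH replicate 2 (-2.24, adjusted p = 0.0653), tumour VEH replicate 2 (0.0534) or tumour VEH replicate 3 (0.0897). It was also lost with a block for the name prefix (-1.82, adjusted p = 0.118) and without the 4 libraries with conflicting prefixes (-1.77, adjusted p = 0.173). The HDM call remained without tumour HDM replicate 3, at -2.50.

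Beside Siglecf, 5 of the 8 alveolar macrophage markers were called lower under VEH and 6 of 8 under HDM, and 0 were called higher. Siglec1, 1 of the 8, was not called, and its mean was 8.82 CPM in normal VEH, 20.5 in normal HDM, 28.5 in tumour VEH and 36.4 in tumour HDM. The 8 markers summed to 327 to 7633 CPM in normal VEH and 266 to 8107 in normal HDM. In tumours the sum was 87.0 to 232 CPM under VEH and 70.3 to 215 under HDM. Where high, the sum was mostly Chil3, at 7313 CPM in normal VEH replicate 2 and 7705 in normal HDM replicate 1. Car4 did not share this order, and its lowest normal level was 65.0 CPM in normal VEH replicate 2. Fabp1 was at 0 in 5 of the 6 tumours and Krt79 in 2 of them. Epx, the eosinophil peroxidase, had 0 counts in all 12 libraries, including those where Siglecf was highest. The part of alveolar macrophages or of eosinophils in the Siglecf result was not tested.

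**Figure D2:**
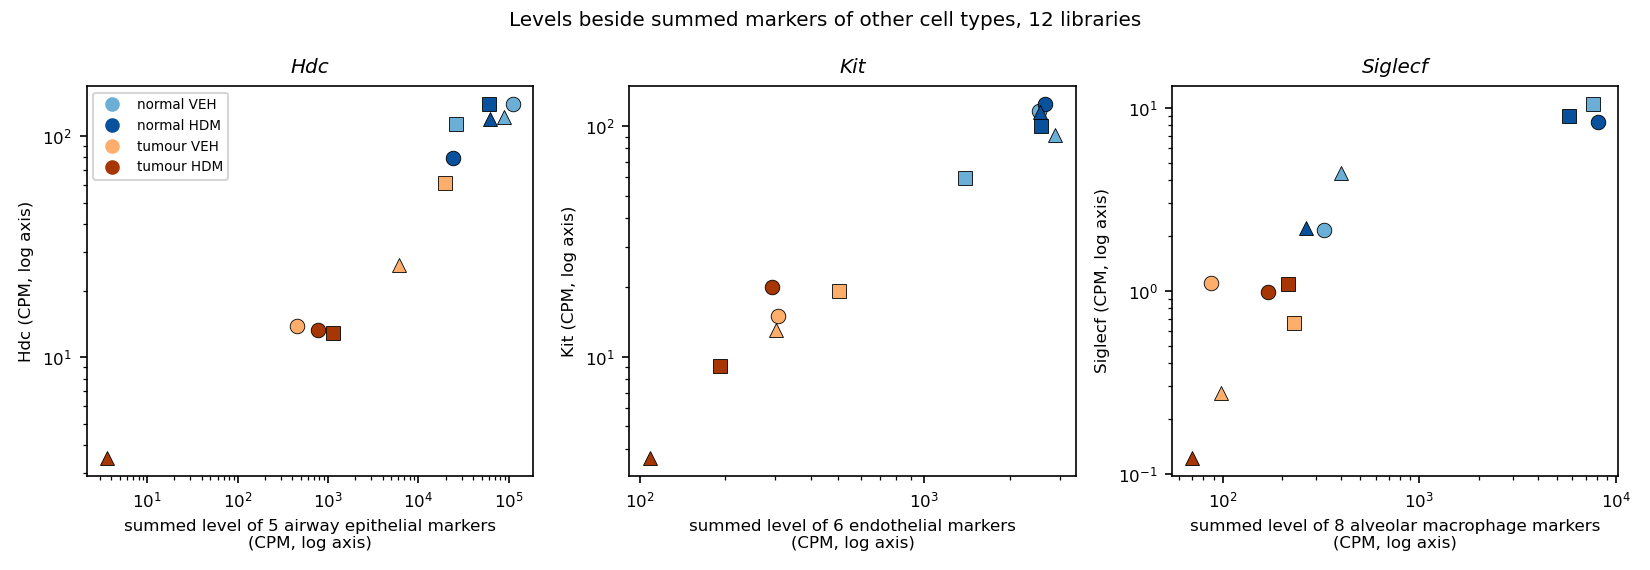
Level of Hdc, Kit and Siglecf (vertical, CPM, log axis) against the summed level of markers of another lung cell type (horizontal, CPM, log axis): 5 airway epithelial markers for Hdc, 6 endothelial markers for Kit and 8 alveolar macrophage markers for Siglecf. Each point is 1 of the 12 libraries, coloured by group and shaped by replicate. Tumour libraries lie at the lower left in each panel, with tumour HDM replicate 3 lowest on both axes. The alveolar macrophage sum is mostly Chil3 where it is high.

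Ccr3, the eotaxin receptor on eosinophils, could not be compared (ENSMUSG00000035448, chr9:123822009-123831726, plus strand, GRCm39). It had 4 counts each in normal HDM replicates 1 and 2, and 2 counts each in tumour VEH replicate 1 and in tumour HDM replicates 1 and 3. It was at 0 in all 3 normal VEH libraries. Differences between groups were not detectable at this depth.

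The granule proteases were far scarcer than Hdc or Kit. Cpa3, the carboxypeptidase of mast cell granules, lies on chromosome 3 (ENSMUSG00000001865, chr3:20269774-20296362, minus strand, GRCm39). It overlaps Gm31320 on the opposite strand, which had 394 counts against 325 for Cpa3, and whether counting used the strand is not given in the sources used here. Cpa3 was at 1.97, 0.535 and 1.14 CPM in normal VEH and 1.60, 1.21 and 2.76 CPM in normal HDM. Tumour VEH had 0.212, 0.149 and 0.554 CPM, and tumour HDM had 0.246, 0 and 1.82 CPM. The highest VEH tumour stood just above normal VEH replicate 2, and under HDM a single tumour, replicate 3, stood within the normal range. The log2 change was -1.99 ± 1.19 (SE, n = 3 per group, adjusted p = 0.20) under VEH and -1.41 ± 1.12 (adjusted p = 0.31) under HDM, neither of which passed the edgeR test. Without tumour HDM replicate 3 the HDM change was -3.77 and passed (adjusted p = 0.0281).

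Cma1, the chymase of connective tissue mast cells, did not differ detectably (ENSMUSG00000022225, chr14:56178908-56182132, minus strand, GRCm39). Normal VEH had 0.329, 0.189 and 0.168 CPM, and normal HDM had 0.573, 0.227 and 0.221 CPM. Tumour VEH had 0.0850, 0.446 and 0.185 CPM, and tumour HDM had 0.0821, 0.0683 and 1.52 CPM. The groups overlapped under VEH, and under HDM tumour replicate 3 lay above all normal libraries while the other tumours lay below them. The log2 change was 0.08 ± 1.14 (SE, n = 3 per group, adjusted p = 0.96) under VEH and 0.72 ± 1.09 (adjusted p = 0.60) under HDM (edgeR). The latter turned to -1.98 without tumour HDM replicate 3. Under VEH it turned to -0.74 without tumour VEH replicate 2, to -0.04 without normal VEH replicate 2 and to -0.09 without normal VEH replicate 3.

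Tpsb2, a tryptase, was below the filter (ENSMUSG00000033825, chr17:25585170-25588079, plus strand, GRCm39). It had 2, 6 and 0 counts in normal VEH, 6, 4 and 0 in normal HDM, 0, 8 and 6 in tumour VEH, and 2, 18 and 56 in tumour HDM. The 2 highest libraries were tumour HDM replicates 3 and 2, at 1.70 and 0.615 CPM. Its near copy Tpsab1 had 6 counts in tumour HDM replicate 3 and 2 in tumour VEH replicate 3, and reads of the pair may be split between them.

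Mcpt8, the protease that marks mouse basophils, lies on chromosome 14 near Cma1 (ENSMUSG00000022157, chr14:56319623-56322730, minus strand, GRCm39). In 5 of the 6 tumours its level was above that of all normal libraries, although the change was not called. Normal VEH had 0, 6 and 2 counts and normal HDM 0, 6 and 0. Tumour VEH had 15, 2 and 20 counts, and tumour HDM 6, 24 and 54. In CPM the tumours had 0.637, 0.0744 and 0.923 under VEH and 0.246, 0.820 and 1.64 under HDM, against at most 0.227 in normal lung. In CPM all 3 HDM tumours lay above all 3 HDM normal libraries, while tumour VEH replicate 2 lay within the normal range. Tumour HDM replicate 1 and normal HDM replicate 2 had 6 counts each, so their order rests on library scaling alone. The log2 change was 2.46 ± 1.39 (SE, n = 3 per group, adjusted p = 0.17) under VEH and 3.49 ± 1.43 (adjusted p = 0.061) under HDM, and neither passed the edgeR test. The HDM change passed when libraries were scaled by size alone (3.69, adjusted p = 0.0482), with the DESeq2 Wald test (3.50, adjusted p = 0.0360), with all counts halved (3.42, adjusted p = 0.0357) and without normal HDM replicate 2 (7.59, adjusted p = 0.0233). Mcpt8 belongs to a family of similar proteases, so its reads are uncertain.

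**Figure D3:**
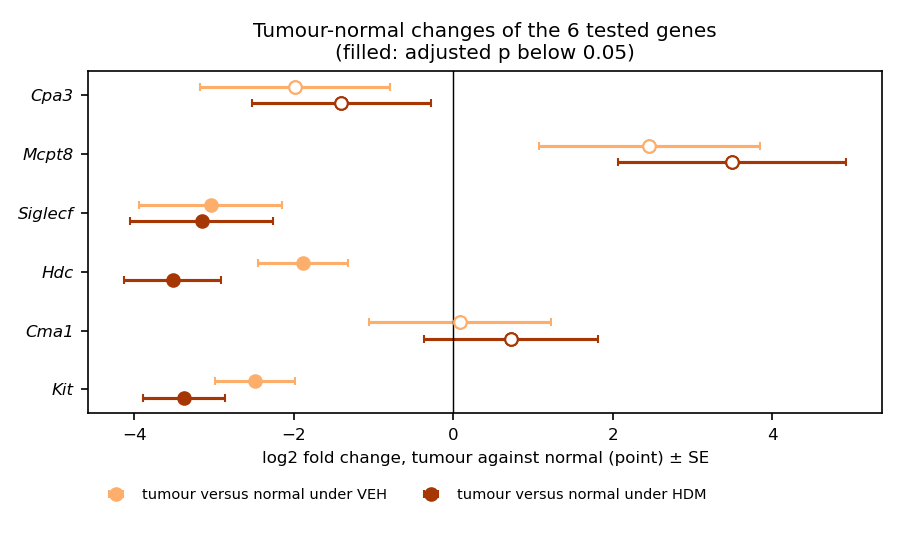
Log2 fold change from normal lung to tumour (horizontal, point ± SE, edgeR) of the 6 genes that passed the filter on low counts, under VEH and under HDM (3 libraries in each group). Filled points have an adjusted p below 0.05: Siglecf, Hdc and Kit lie to the left of 0 under both treatments, and Mcpt8 lies to the right with open points.

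Both chains that are particular to the IgE receptor were scarce. Fcer1a encodes the alpha chain, which binds IgE (ENSMUSG00000005339, chr1:173048851-173054781, minus strand, GRCm39). It had 4, 20 and 0 counts in normal VEH, 8, 2 and 4 in normal HDM, 0, 2 and 4 in tumour VEH, and 0, 0 and 10 in tumour HDM. All 4 groups overlapped. Ms4a2 encodes the beta chain, which amplifies the signal (ENSMUSG00000024680, chr19:11592887-11601083, minus strand, GRCm39). It had 8, 20 and 2 counts in normal VEH and 12, 6 and 2 in normal HDM. Counts were 0 in all 3 VEH tumours and 2, 0 and 4 in HDM tumours. With the tumours set to the floor of 3 counts per library, the mean of Ms4a2 was 2.76-fold lower in VEH tumours than in VEH normal lung. Without normal VEH replicate 2 it was 1.64-fold lower. These ratios leave out the spread of the normal libraries, where replicate 3 held 2 counts, and the even counts described above. Neither gene passed the filter on low counts. In a fit without the filter Ms4a2 was called lower in VEH tumours (adjusted p = 0.0387, edgeR), and Fcer1a, Tpsb2 and Ccr3 were not called (adjusted p = 0.549, 0.657 and 0.387).

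Ranked by median CPM per kb of gene length, Hdc (18.8) and Kit (12.1) led the 10 genes in the 6 normal libraries. Siglecf (2.28) and Cpa3 (0.925) followed, and the other 6 lay at 0.205 or below. The ranges of Hdc (12.5 to 21.9) and Kit (6.69 to 14.0) overlapped in normal lung, as did those of Siglecf (0.765 to 3.77) and Cpa3 (0.353 to 1.82). In the 6 tumours Hdc (2.12) and Kit (1.58) again led, and Mcpt8 (0.730) came next, ahead of Siglecf (0.297) and Cpa3 (0.151). The ranges of Mcpt8 (0.0745 to 1.64) and Siglecf (0.0435 to 0.396) overlapped there. In normal lung Mcpt8 had a median of 0.0422 CPM per kb and stood next to last, before Ccr3.

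HDM exposure was compared with VEH in each tissue. As the libraries are labelled, 0 of the 6 tested genes were called by edgeR in normal lung, beside 0% of all genes. There were 0 at an unadjusted p below 0.05, where 5.54% of all genes were. DESeq2 called 0 of the 6 (1 adjusted p not given), beside 43 of all 22190 genes. HDM and VEH libraries overlapped for all 6, where 10.3% of all genes did not overlap. The log2 changes ran from -0.30 ± 1.50 (SE, n = 3 per group) for Mcpt8 to 0.62 ± 1.10 for Cpa3. In tumours 0 of 6 were called, beside 0.0946% of all genes (0.00901% higher and 0.0856% lower). At an unadjusted p below 0.05 there was 1 gene of the 6, where 16.7% of all genes were. That gene was Hdc, whose HDM tumours all lay below its VEH tumours; in this comparison 22.0% of all genes did not overlap. Its log2 change was -1.78 ± 0.57 (adjusted p = 0.20, edgeR). The DESeq2 Wald test called it (-1.81, adjusted p = 0.0333), where it called 5.91% of all genes. The interaction test, whether the tumour change depends on treatment, called 0 of 6 by edgeR, beside 0% of all genes. With DESeq2 it called 0 of the 6, beside 222 of all 22190 genes. Before adjustment the edgeR p fell under 0.05 for 0 of the 6 and for 9.39% of the whole gene set. For Hdc the edgeR interaction was -1.63 ± 0.78 (adjusted p = 0.54), and for Kit -0.89 ± 0.67 (adjusted p = 0.66). These shares of all genes depend on the labels. With the 2 conflicting normal libraries labelled by prefix, edgeR called 576 of 22190 genes in normal lung (503 higher and 73 lower). It then called 186 genes in the interaction, and none of the 6 members in either.

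Tumour HDM replicate 3 stood apart from the other tumours in several mast cell and basophil genes, though not in all. It had the highest tumour level of 6 of the 8 mast cell and basophil members: Cpa3 (60 counts), Cma1 (50), Tpsb2 (56), Mcpt8 (54), Fcer1a (10) and Ms4a2 (4). Of the listed genes with counts in any tumour, it was highest for 2 of 5 mast cell proteases (Mcpt4 and Tpsab1), 3 of 11 mast cell identity and mediator genes (Gata2, Hpgds and Alox5) and 1 of 4 basophil genes (Cd200r3). Mcpt2 and Mrgprb1 were instead highest in tumour HDM replicate 1, Il4 and Il6 in tumour HDM replicate 2, and Mcpt1 and Tpsg1 had counts in tumour VEH replicate 2 alone. How often tumour HDM replicate 3 was the highest tumour over all genes was not counted. Whether these counts are particular to the listed genes therefore cannot be told. Some rest on few counts, such as Ms4a2 with 4 counts against 2 in tumour HDM replicate 1. Tumour HDM replicate 3 was at the same time the lowest of all 12 libraries for Hdc, Kit and Siglecf. Leaving it out turned the HDM-VEH log2 change in tumours from 1.20 to -1.29 for Cpa3 and from 1.21 to -1.60 for Cma1. This library also held 40 counts of the fat cell gene Adipoq, against 0 to 4 in the other tumours, and almost no lung epithelial RNA, as given above. The part of the tissue piece in these levels was not tested.

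**Figure D4:**
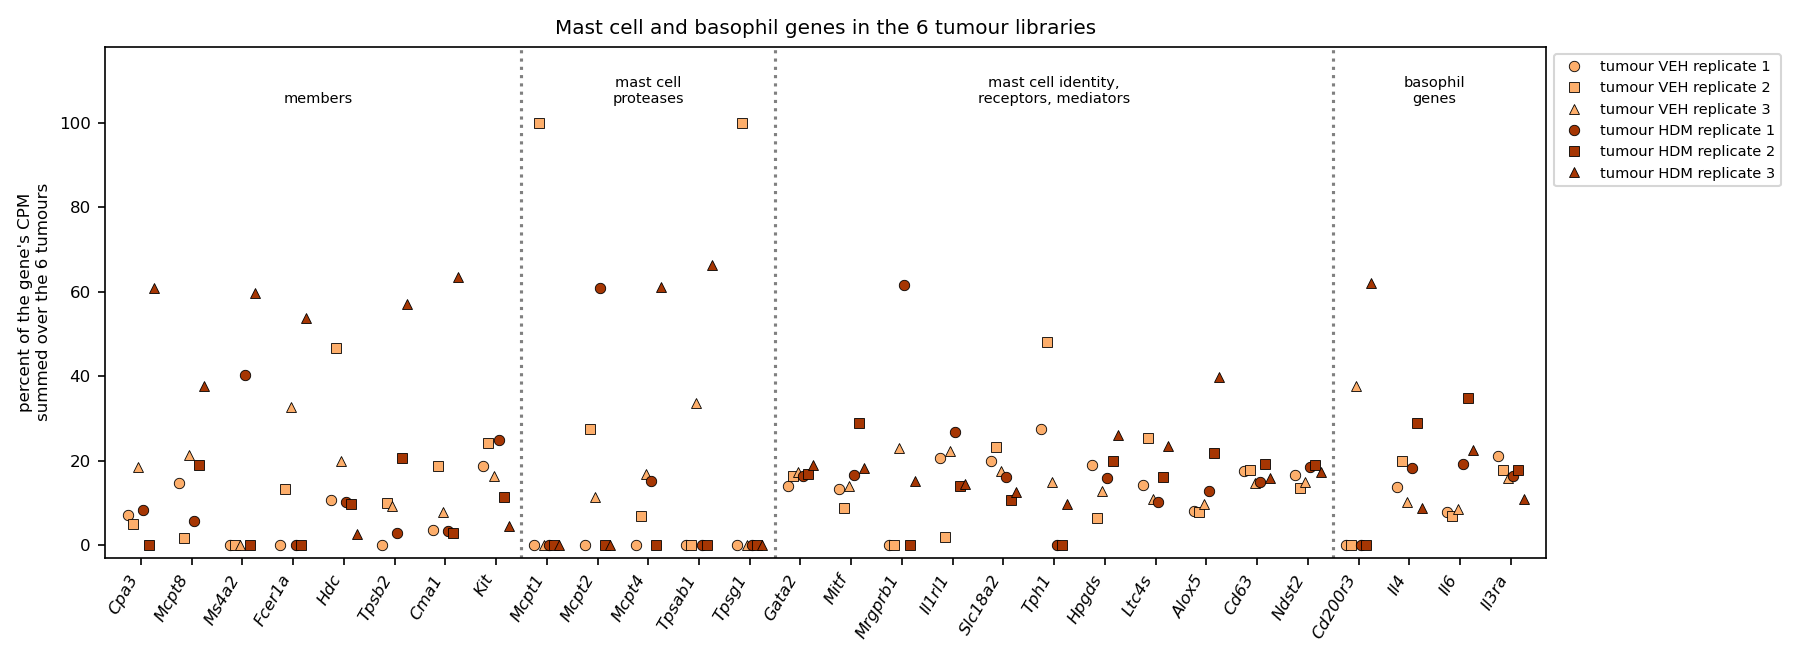
Share of each gene's level held by each of the 6 tumour libraries (vertical, percent of the CPM summed over the 6 tumours) for all 28 mast cell and basophil genes of the members and 3 lists that had counts in any tumour (horizontal), coloured by treatment and shaped by replicate. Tumour HDM replicate 3 is the highest of the 6 for 12 of the 28 genes, with 61.0% of Cpa3 and 63.6% of Cma1. Tumour VEH replicate 2 is the highest for 6 of them. The share over all genes was not counted.

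The normal libraries took a different order when arranged by the tumour that shares their name prefix. Siglecf was 8.36 to 10.5 CPM in the 3 normal libraries joined to HDM tumours (VEH replicate 2, HDM replicates 1 and 2) and 2.14 to 4.38 CPM in the 3 joined to VEH tumours. Tpsb2 also did not overlap, with 16 summed counts against 2. Of the 6 tested genes 1 did not overlap in this order, beside 26.9% of all tested genes, and Hdc, Kit, Cpa3, Cma1 and Mcpt8 overlapped. The basophil protease Prss34 had 16, 10 and 10 counts in the first set and 0 in every library of the other. Of the 6 basophil genes, 2 (Prss34 and Cd200r3) were higher in the first set without overlap and 1 was lower: the cytokine gene Il4, at 0.818 to 1.40 CPM against 1.62 to 2.51. Il4 overlaps Kif3a on the opposite strand, which had 8947 counts against 466 for Il4, so its reads are uncertain. Of the 9 eosinophil genes, 5 were higher and 0 lower. Prg2, the eosinophil major basic protein, lay at 1.43 to 4.22 CPM against 0 to 0.368, and Ear6, an eosinophil-associated ribonuclease, at 5.0 to 6.10 CPM against 0. Alveolar macrophage (5 of 8), neutrophil (7 of 8) and general macrophage and monocyte markers (5 of 6) were higher without overlap in the same libraries, and their part was not tested. With the 2 conflicting normal libraries relabelled by prefix, the HDM change of Siglecf in normal lung was 1.67 ± 0.64 (adjusted p = 0.195, edgeR). Which label is right cannot be told from these files.

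**Figure D5:**
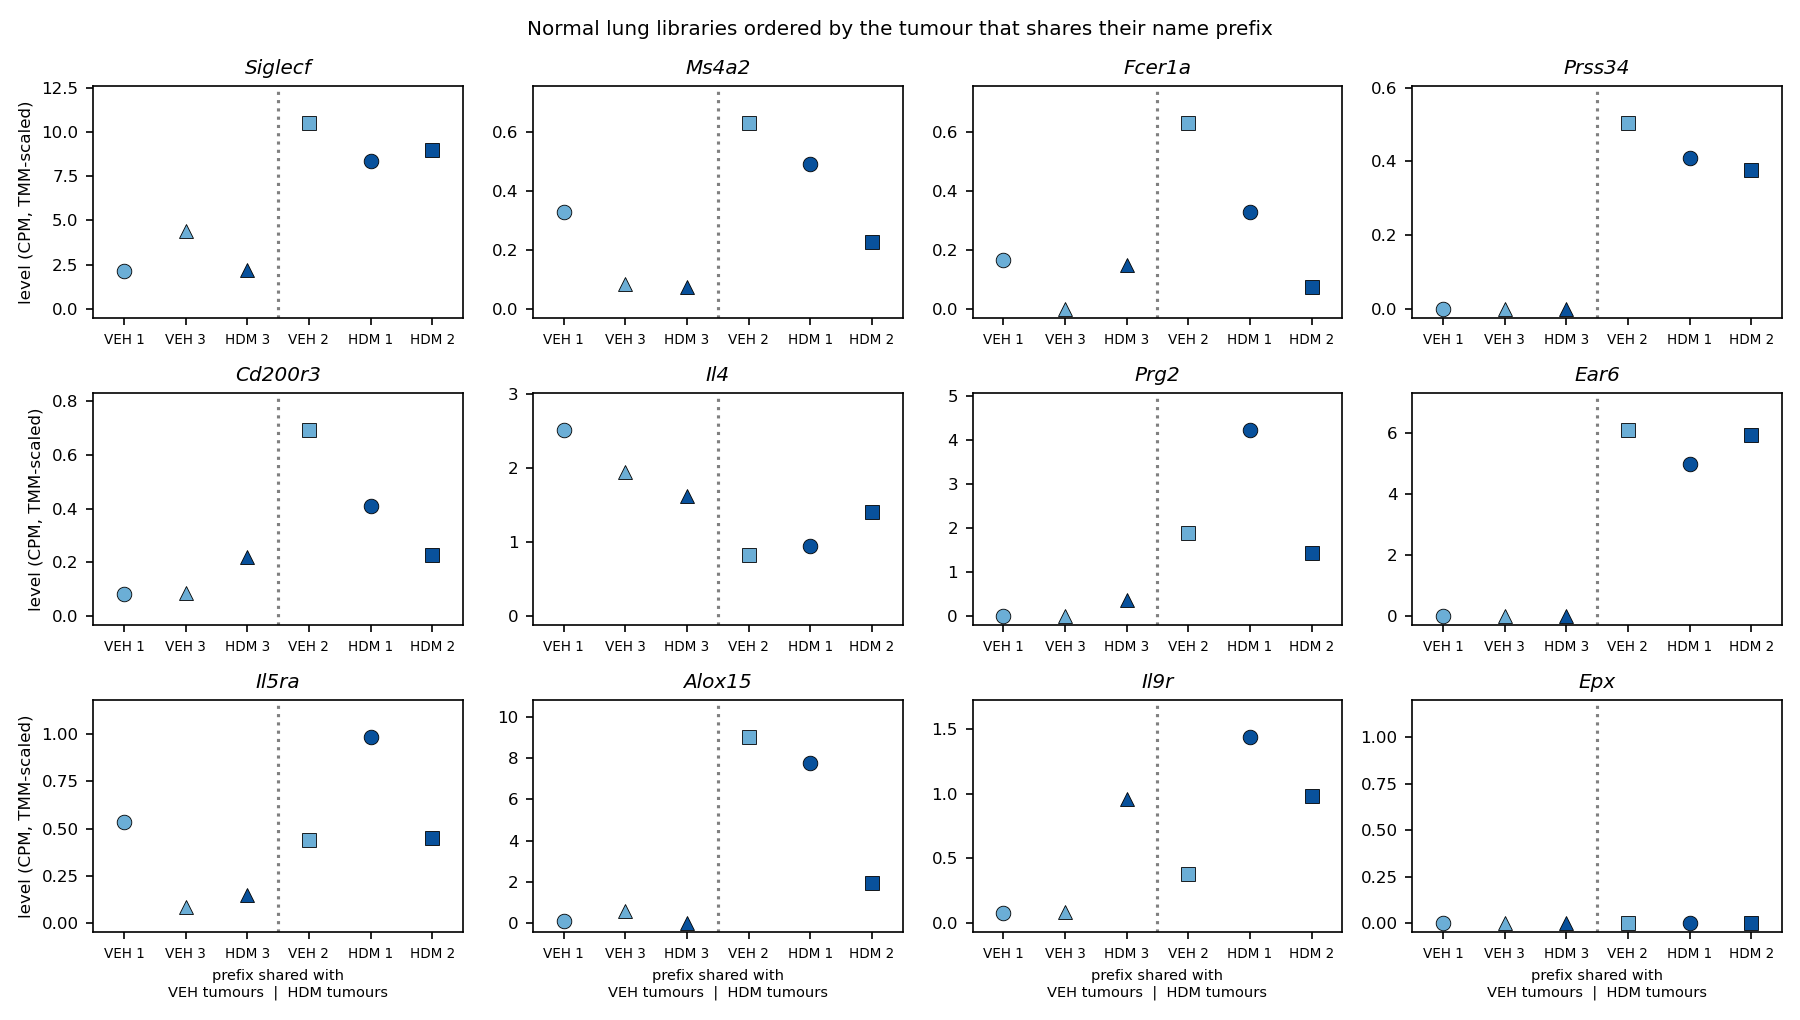
Levels (vertical, CPM after TMM scaling, 1 panel per gene) in the 6 normal lung libraries, ordered by whether their name prefix is shared with a VEH tumour (left of the dotted line) or an HDM tumour (right); colours give the treatment label (light VEH, dark HDM). The genes shown were chosen after their values were seen. Siglecf, Prss34, Cd200r3, Prg2, Ear6 and Alox15 are higher in all 3 libraries on the right, Il4 is lower there, Ms4a2, Fcer1a, Il5ra and Il9r overlap, and Epx is at 0 throughout.

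The 64 other genes of these cells and their pathways were grouped in 7 lists, of which 46 passed the filter. Under VEH 3 were higher and 8 lower in tumours (edgeR, adjusted p below 0.05), which is 23.9% called beside 38.9% of all genes. Under HDM 7 were higher and 12 lower, which is 41.3% beside 51.9% of all genes. Of these calls, 5 of 11 and 9 of 19 remained in all 12 fits that each left out 1 library. A block for the name prefix ended the VEH calls of Alox5, Csf2, Gata1 and Ndst2 (adjusted p = 0.0622 to 0.248) and the HDM calls of Ccl5, Gata1, Il3ra, Lat, Mitf, Plcg1 and Tslp (0.0511 to 0.195). Without the 4 libraries with conflicting prefixes, the VEH calls of Alox5, Csf2 and Gata1 (0.0837 to 0.243) and the HDM calls of Ccl5, Ear2, Gata2, Hpgds, Il3ra, Lat, Mitf, Plcg1 and Tslp (0.0528 to 0.226) were lost. Between HDM and VEH 0 of the 46 were called by edgeR in normal lung and 0 by DESeq2, with 2 at an unadjusted p below 0.05, where 5.54% of all genes were. In tumours edgeR called 0 and DESeq2 4, with 7 at an unadjusted p below 0.05, where 16.7% of all genes were. The interaction called 0 by edgeR and 2 by DESeq2, with 6 at an unadjusted p below 0.05, where 9.39% of all genes were. Over all 22190 genes DESeq2 called 43 in normal lung, 1311 in tumours and 222 in the interaction.

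Among 6 further mast cell proteases, Mcpt4 alone passed the filter. It had 2.92, 2.77 and 2.06 CPM in normal VEH and 0, 0.0744 and 0.185 CPM in tumour VEH, which did not overlap (-4.86 ± 1.18, SE, n = 3 per group, adjusted p = 0.0094, edgeR). Without tumour VEH replicates 1 and 3 in turn this was -4.20 and -5.81. Under HDM it had 0.983, 0.755 and 0.773 CPM in normal lung and 0.164, 0 and 0.667 CPM in tumours, which did not overlap either. It was not called there (-1.55 ± 1.00), but it was without tumour HDM replicate 3 (-3.21, adjusted p = 0.0453, edgeR). As labelled, all normal HDM libraries lay below all normal VEH libraries, a difference that was not called. Arranged by prefix, the normal libraries overlapped. Mcpt9 had 0 counts in all 12 libraries.

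Of 12 mast cell identity, receptor and mediator genes 9 were tested, and their log2 changes had medians of 0.55 (VEH) and 0.67 (HDM). Ndst2, which sulfates heparin, was higher under both treatments (0.52 ± 0.14 and 0.67 ± 0.14). The VEH call of Ndst2 was lost without normal VEH replicate 1 or 3 (adjusted p = 0.0566 and 0.0526). Gata2, a transcription factor of mast cells and basophils that endothelium uses too, was lower under both (-1.17 ± 0.18 and -0.98 ± 0.18, SE, n = 3 per group, adjusted p = 0.0012 and 0.0016, edgeR). It overlaps Spehd on the opposite strand, and the HDM call was lost without the 4 libraries with conflicting prefixes (-0.69, adjusted p = 0.0528). Under HDM Mitf, Il1rl1, Hpgds and Cd63 were also higher. Il1rl1, the IL-33 receptor, was at 374, 196 and 202 CPM in HDM tumours against 12.3, 3.36 and 21.6 in HDM normal lung (4.37 ± 1.29, adjusted p = 0.016, edgeR). That call was lost without normal HDM replicate 1 or 2 (adjusted p = 0.0537 and 0.0558), and with normal libraries labelled by prefix (2.72, adjusted p = 0.0751). Under VEH the change of Il1rl1 was also upward but not called (2.44, adjusted p = 0.12, edgeR). It passed with the DESeq2 Wald test (2.42, adjusted p = 0.0396). In edgeR it passed without normal VEH replicate 2 (4.85, adjusted p = 0.0130) and with normal libraries labelled by prefix (4.11, adjusted p = 0.0219). Over the 12 fits that left out a library, Mitf lost its call in 4, and Hpgds and Cd63 in 2 each. Under VEH Alox5, which starts leukotriene synthesis, was lower, and it lost the call in 10 of the 12 fits that left out a library.

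All 12 genes of IgE receptor signalling were tested. The adaptor Lat2 was higher under both treatments (1.87 ± 0.41 and 1.78 ± 0.41, SE, n = 3 per group, adjusted p = 0.0058 and 0.0047, edgeR), and the phospholipase Plcg1 was lower under both (-0.70 ± 0.13 and -0.55 ± 0.13). The HDM call of Plcg1 was lost when replicate 3 of normal HDM or replicate 2 of tumour HDM was left out (adjusted p = 0.0671 and 0.0656). Plcg2 was also higher under VEH, and Lyn and Lat lower under HDM. Leaving out 1 library ended the call of Plcg2 in 4 of 12 fits and that of Lyn in 5. Lat2, Plcg1 and Lyn overlap other genes on the opposite strand. The HDM call of Lat was lost with a block for the name prefix (adjusted p = 0.0742) and without the 4 libraries with conflicting prefixes (0.0695). Macrophages also use Lat2, Plcg2, Cd63 and Hpgds. Of 6 macrophage and monocyte markers, 4 were called higher in tumours under VEH and 3 under HDM. Their sum was 140 to 508 CPM in normal VEH, 216 to 555 in normal HDM, 878 to 1257 in tumour VEH and 713 to 858 in tumour HDM, and the part of these cells in the higher calls was not tested. The shared gamma chain gene Fcer1g, which many myeloid cells use, was not called (0.41 ± 0.69 and -0.13 ± 0.69). The median log2 change of the list was 0.26 under VEH and -0.40 under HDM.

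Of 6 basophil genes 3 were tested, and the IL-3 receptor chain Il3ra alone was called, lower under HDM (-0.69 ± 0.22, adjusted p = 0.025, edgeR), which was lost in 6 of the 12 fits that left out a library. Of 9 eosinophil genes 7 were tested, with medians of -3.41 under VEH and -4.67 under HDM, or -4.45 with genes at the floor set to their bound. Ear1, an eosinophil-associated ribonuclease, was 4.76, 33.4 and 10.8 CPM in normal VEH and 0.935, 2.31 and 0.277 CPM in tumour VEH (-3.78 ± 1.04, SE, n = 3 per group, adjusted p = 0.017, edgeR). That call was lost without tumour VEH replicate 1 or 3 (adjusted p = 0.0682 and 0.0630), and the change was -2.71 without normal VEH replicate 2 and -4.73 without tumour VEH replicate 2. Under HDM the change of Ear1 was -4.45 ± 1.09 (adjusted p = 0.0067), or -5.59 without tumour HDM replicate 2. Ear2 was lower under HDM (-4.67 ± 1.39), but not without tumour HDM replicate 2 (adjusted p = 0.0521), and it was -3.95 without tumour HDM replicate 3. The Ear genes are a family of near copies, so reads may be shared among them. In normal lung Ear2 was 96.5 to 136 CPM where the alveolar macrophage marker Chil3 was 5271 to 7705 CPM. It was 12.3 to 26.8 CPM where Chil3 was 75.3 to 203 CPM. Of 8 alveolar macrophage markers, 5 were called lower in tumours under VEH and 6 under HDM. The part of alveolar macrophages in the Ear results was not tested. Gata1, needed for the formation of eosinophils, mast cells, megakaryocytes and red cells, was lower under both treatments. Under HDM it had 48, 16 and 32 counts in normal lung and 0 in all 3 tumours. With the tumours set to the floor of 3 counts per library, its mean was 11.8-fold lower. The HDM call (adjusted p = 0.0043, edgeR) was lost with a block for the name prefix (adjusted p = 0.0524). Of 4 megakaryocyte and platelet markers, 3 were called lower under VEH, and under HDM 2 were lower and 1, Pf4, higher. They summed to 64.0 to 141 CPM in normal VEH, 51.0 to 77.9 in normal HDM, 13.5 to 21.4 in tumour VEH and 22.2 to 72.9 in tumour HDM, and their part in the Gata1 result was not tested. The VEH call of Gata1 was lost in 11 of the 12 fits that left out a library, and the gene overlaps Gm14820 on the opposite strand.

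Of 15 growth factors, attractants and their receptors 12 were tested, and Il3 and Il9 had 0 counts in all 12 libraries. Csf2, a cytokine that sustains eosinophils, was lower under VEH (-1.97 ± 0.49, SE, n = 3 per group, adjusted p = 0.011) and under HDM (adjusted p = 0.00021, edgeR). In HDM tumours it had 2 counts in each library against 39, 61 and 48 in normal lung. With the tumours set to the floor, its mean was 17.9-fold lower. The VEH call was lost without the 4 libraries with conflicting prefixes (-1.73, adjusted p = 0.0837), and Csf2 overlaps Gm57329 on the opposite strand. Kitl, the ligand of Kit, was lower under VEH (-1.15 ± 0.36, adjusted p = 0.027), a call lost without normal VEH replicate 1 (adjusted p = 0.0847) or 3 (0.0958) or tumour VEH replicate 1 (0.0972) or 3 (0.101). Under HDM the chemokine Ccl7 was higher (3.91 ± 1.02, adjusted p = 0.0093), and Il9r, Tslp and Ccl5 were lower. Tslp lost its call in 7 and Ccl5 in 6 of the 12 fits that left out a library. Neither of the 2 histamine receptor genes tested, Hrh1 and Hrh2, was called.

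Within groups, the genes whose levels followed each member most closely over the 12 libraries were ranked by Pearson's r of log2 CPM after subtracting group means. For Hdc they were Aoc1 (0.989), Ttc34 (0.987) and Liph (0.987), with r of 0.972 to 0.984 without the 2 libraries farthest from the median. For Siglecf they were F7 (0.977), Cebpb (0.976) and Mcoln3 (0.971), with 0.954 to 0.967 without 2 libraries. For Kit they were Tcf7 (0.968), Ehd3 (0.964) and Gpm6b (0.959), falling to 0.816 to 0.861. For Cpa3 they were Cdc23 (0.965), Mest (0.962) and Tial1 (0.926), falling to 0.738 to 0.851. Tumour HDM replicate 3 was among the 2 libraries left out in all 4 cases. Among the members, Cpa3 and Cma1 had an r of 0.677, Hdc and Kit 0.654, and Cpa3 and Siglecf -0.846. All points share libraries and their scaling, and these values are a description without a test.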

How the data were processed

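RNA-seq of 12 mouse lung libraries was analysed from the raw counts per gene that the authors deposited. Per the submitters' processing notes, Trim Galore, STAR and featureCounts of Subread were used with build mm39. Versions, the annotation and the strand setting of the counting are not given in the sources used here, and the labels' protocols name a stranded library method and do not settle how RNA was selected. Symbols and positions came from GENCODE M39 (GRCm39), which held 78168 of the 78298 identifiers. The other 130 carried 0.143% of counts.

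The deposited counts went into edgeR 4.0.16 in R 4.3.3 (filterByExpr with minimum count 10, TMM, robust quasi-likelihood fit, 1 coefficient per group, all 12 libraries), with two-sided p-values adjusted by Benjamini-Hochberg over 22190 genes and a threshold of 0.05. Alternatives were other scalings and filters, DESeq2 1.42.0, blocks for replicate number and prefix, halved counts, prefix labels and leaving out libraries. The steps were tested on simulated data. Genes named are the 10 members, the genes of the lists, and for 4 members the 3 genes of most similar pattern. Members and lists were chosen with earlier results of these data known. A floor of 3 counts per library was used for genes with no more than that throughout a group.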

Additional observations from a re-analysis of the deposited data

Results flagged for a closer look

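Il9r, a receptor for the mast cell growth factor IL-9, lay on opposite sides of VEH under HDM in the 2 tissues, as the libraries are labelled. In normal lung the HDM libraries had 1.43, 0.982 and 0.957 CPM and the VEH libraries 0.0821, 0.378 and 0.0842 CPM, so all HDM libraries were higher. Arranged by the tumour that shares their name prefix, the normal libraries overlapped, with 0.378 to 1.43 CPM beside HDM tumours and 0.0821 to 0.957 CPM beside VEH tumours. In tumours the HDM libraries had 0.0821, 0 and 0.0303 CPM and the VEH libraries 0.680, 0.521 and 0.738 CPM, so all HDM libraries were lower. The interaction was -6.57 ± 1.21 on the log2 scale (SE, n = 3 per group, adjusted p = 0.29, edgeR) and did not pass. Over the alternatives its adjusted p ran from 0.000203 (DESeq2 Wald test) to 0.652. The HDM tumours held 2, 0 and 1 counts, so the fitted size depends on the prior count, and Il9r overlaps Gm40823 on the opposite strand.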

How the results depend on the processing

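The count of called members under VEH was 3, and it was 1 with a prefix block and 0 without the 4 libraries with conflicting prefixes. Leaving out 1 library gave 1 (without tumour VEH replicate 3) to 4 under VEH and 3 to 4 under HDM, and 0 to 0 in the other 3 comparisons. DESeq2 called 1 member between HDM and VEH in tumours, where it called 5.91% of all genes. With at least 10 counts in every library only Hdc and Kit were tested among the members, and both were called in tumours under VEH and HDM. Scaling by library size alone moved the median log2 change of all genes from -0.11 to 0.03 under VEH and from -0.08 to 0.10 under HDM, and reversed no member.

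Same-numbered libraries deviated together with correlations of -0.355 to 0.303 and libraries of 1 prefix with -0.219 to 0.179. The labels do not say what a replicate number or a prefix stands for, and no pairing entered the main test. With the prefix block the VEH calls of Hdc and Siglecf were lost and that of Kit remained (-2.52, adjusted p = 0.0387). With a replicate block 3 members were called under VEH and 3 under HDM, and 0 elsewhere. That block turned the HDM change of Siglecf to -0.052 in normal lung and -0.079 in tumours.

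Other reversals concerned values that were not called. A prefix block turned the change of Cma1 to -0.43 (tumour, VEH), -0.026 (tumour, HDM), -0.74 (HDM, normal) and -0.33 (HDM, tumours). It turned the HDM change in normal lung to -2.04 for Cpa3 and 0.42 for Hdc, that in tumours to -1.70 for Mcpt8 and -1.45 for Siglecf, and the tumour change under VEH to 1.25 for Prg2 and 2.81 for Ear6. Without the 4 libraries, Cpa3 (-0.14) and Mcpt8 (1.35) turned in normal lung, Siglecf (-0.68) in tumours, and Prg2 (4.13) and Ear6 (3.22) in tumours against normal under VEH. With normal libraries labelled by prefix, Cpa3 (-0.82), Mcpt8 (2.20) and Kit (-0.18) turned in normal lung, Mcpt8 (-1.46) in the interaction and Ear6 (2.75) under VEH. Under that labelling the VEH change of Mcpt8 passed (4.10, adjusted p = 0.0376). The cause was not tested.

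Over the fits that left out 1 library, the sign also changed for Cma1 (tumour under VEH -0.74 to 0.57, under HDM -1.98 to 1.31, HDM in normal -0.026 to 0.90, in tumours -1.60 to 2.03, interaction -2.16 to 1.46), Cpa3 (HDM in tumours -1.29 to 1.91, interaction -1.90 to 1.30), Mcpt8 (HDM in normal -4.39 to 0.80, interaction -0.063 to 5.13), Siglecf (HDM in normal -0.19 to 1.00, in tumours -0.32 to 0.63, interaction -0.92 to 0.46), Hdc (HDM in normal -0.33 to 0.052), Prg2 (tumour under VEH -7.09 to 3.59) and Ear6 (-8.76 to 2.73). A tally over the settings covered the tested members, the listed genes in the comparisons where they were called, and Il9r, Prg2, Ear6, Il1rl1 and Mcpt4. Of its values, 1332 kept direction and side of the threshold, 135 lost the threshold, 30 passed it and 50 turned. Depth limits Ccr3, Ms4a2, Fcer1a and Tpsb2, whose counts reached 4, 20, 20 and 56.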
